A study of Mus musculus with 9 samples.

Results

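The type 2 cytokines and their receptors were taken here as 10 genes: the cytokines Il4, Il5, Il9, Il13, Il25 and Tslp and the receptor chains Il4ra, Il13ra1, Il13ra2 and Il17rb. They are listed by gene symbol, with no cutoff on measured values, although earlier results of these data were known when they were chosen. Each was measured by 1 probe set that the array's annotation gives to that gene only, out of 23410 probe sets tested and 19938 genes represented. The samples were nasal mucosa of BALB/c mice, labelled male and all given the same age range, on 9 Affymetrix Mouse Gene 1.0 ST arrays in 3 groups of 3. Control mice were sensitised and challenged with saline. OVA mice received ovalbumin, the egg white protein that serves as allergen here, for sensitisation and for challenge, and were killed 2 hours after the last challenge. The 4-week mice had that same ovalbumin treatment and were killed 4 weeks after the last challenge. No time after the last challenge is listed for the control mice. If the age range refers to the start of treatment, the 4-week mice were older when killed than the OVA mice. Age then cannot be told apart from the allergen-free period. No mutant or transgenic line is named for any group. The series title refers to allergen avoidance, so the groups ask what a recent challenge and a later allergen-free period leave in the tissue. Whether each array came from its own animal is not stated, so the p-values may reflect technical spread between samples alone.

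The 3 arrays labelled control did not carry the sex-linked pattern of their label. Xist, the RNA of the inactive X chromosome, lay between 10.62 and 11.11 on the log2 scale on these arrays and between 4.22 and 4.42 on the other 6, and the Y-linked Eif2s3y lay between 3.00 and 3.58 against 8.08 to 8.47. Every difference from the arrays labelled control therefore cannot be told apart from a difference in sex pattern, and the comparison of 4-week with OVA arrays has the same pattern on both sides. Markers of the labelled tissue were present on all arrays: Omp, of mature olfactory neurons, lay between 11.47 and 12.43 and Bpifa1, a secreted protein of nasal epithelium, between 12.37 and 13.14. Array medians ranged from 6.38 to 6.45.

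In allergic airway tissue, Tslp and Il25 are made by epithelial cells, Il25 largely by tuft cells, and act on innate lymphoid cells and other leukocytes. Th2 cells and innate lymphoid cells of the second type then make Il4, Il5, Il9 and Il13. Il5 supports eosinophils, Il9 mast cells, Il4 the class switch to IgE, and Il13 mucus production. Il4 and Il13 signal through shared chains: Il4ra pairs with the common gamma chain to form a receptor for Il4, or with Il13ra1 to form one for Il4 and Il13, and both act through JAK kinases and STAT6. Il13ra2 binds Il13 with high affinity and is best known as a decoy, and Il17rb is the chain that binds Il25.

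Upstream sequences are shown for Il4ra, Il13ra1, Il13ra2 and Il13, whose arrays separated at least some of the groups. The Il9 arrays did so as well, and its motif matches are given below without the sequence. RefSeq entries on build GRCm38.p6 matched 8 of the 10 members; Il25 and Tslp had none. Each line gives the 250 bases before the annotated start, 5′ to 3′ on the gene's strand, in lower case with the motif matches in capitals. Il4ra is at chr7:125552021-125552270 on the plus strand, Il13ra1 at chrX:36111858-36112107 on the plus strand, Il13ra2 at chrX:147429193-147429442 on the minus strand and Il13 at chr11:53634703-53634952 on the minus strand.
Il4ra: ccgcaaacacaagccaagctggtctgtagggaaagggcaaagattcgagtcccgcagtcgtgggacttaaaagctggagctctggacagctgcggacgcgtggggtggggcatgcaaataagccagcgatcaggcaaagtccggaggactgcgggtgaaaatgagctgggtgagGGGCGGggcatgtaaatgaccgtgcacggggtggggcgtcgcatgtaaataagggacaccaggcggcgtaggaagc
Il13ra1: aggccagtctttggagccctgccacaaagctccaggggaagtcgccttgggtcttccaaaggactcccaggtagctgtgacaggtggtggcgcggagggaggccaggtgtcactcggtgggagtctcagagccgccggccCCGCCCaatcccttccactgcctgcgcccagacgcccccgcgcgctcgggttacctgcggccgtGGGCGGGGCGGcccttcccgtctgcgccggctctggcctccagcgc
Il13ra2: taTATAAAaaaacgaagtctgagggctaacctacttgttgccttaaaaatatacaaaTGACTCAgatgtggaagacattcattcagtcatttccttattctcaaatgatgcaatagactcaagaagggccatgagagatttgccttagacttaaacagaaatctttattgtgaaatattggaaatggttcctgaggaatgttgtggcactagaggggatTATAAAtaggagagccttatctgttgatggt
Il13: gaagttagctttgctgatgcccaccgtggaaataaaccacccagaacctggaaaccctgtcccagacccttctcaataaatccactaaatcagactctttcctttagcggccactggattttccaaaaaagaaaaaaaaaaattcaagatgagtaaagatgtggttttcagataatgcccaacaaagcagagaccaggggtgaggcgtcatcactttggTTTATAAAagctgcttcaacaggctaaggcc

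The motifs searched on both strands were TTCNNNNGAA, the spacing favoured by STAT6, TTCNNNGAA, that of other STAT factors, TGANTCA for AP-1, TATAAA for the TATA box and GGGCGG for the GC box. Of 32851 upstream windows of the same length, 5.85% held the STAT6 spacing, 7.02% the other STAT spacing, 6.75% the AP-1 letters, 12.4% the TATA letters and 32.7% the GC box. The Il4ra window held 1 GC box and the Il13ra1 window 3, of which 2 overlap. The Il13ra2 window held an AP-1 match 193 bases and TATA matches 248 and 31 bases before the start, and the Il13 window a TATA match 29 bases before the start, with an overlapping match on the other strand. Neither STAT spacing was found in these 4 windows. The STAT6 spacing was found among the members upstream of 1 of the 2 annotated starts of Il4 (TTCACAGGAA) and upstream of Il9 (TTCTGAGGAA), where an AP-1 match also lay. These are matches of letters in a window and were not tested as binding sites.

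Il4ra, the chain shared by the Il4 and Il13 receptors, had the largest change among the members in the OVA arrays. Its log2 expression was 6.93, 6.89 and 6.66 on the arrays labelled control, 7.63, 7.30 and 8.06 on the OVA arrays and 7.12, 7.16 and 7.14 on the 4-week arrays. The 3 groups did not overlap: every OVA array was above every 4-week array, and every 4-week array above every array labelled control. The OVA mean of 7.66 ± 0.38 (SD, n = 3) was 1.78-fold above the mean of the arrays labelled control, 6.83 ± 0.15 (log2 change 0.83, SE 0.17, 95% confidence interval of the fold 1.37 to 2.32). This did not pass in limma over all probe sets (adjusted p = 0.0537). Without OVA replicate 2, the lowest OVA array, the change was 1.02 and passed (adjusted p = 0.0251), and without OVA replicate 3, the highest, it was 0.63 and did not. It also passed with all arrays under 3 alternative settings (adjusted p from 0.0392 to 0.045). In this whole tissue, a change in the number of cells of a type and a change in RNA per cell cannot be told apart.

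At 4 weeks the Il4ra mean was 7.14 ± 0.02, 1.44-fold below the OVA mean (log2 change −0.52, SE 0.17, limma adjusted p = 0.0998). That comparison passed without OVA replicate 2 (−0.70, adjusted p = 0.0436) and not without OVA replicate 3 (−0.32). Against the arrays labelled control the 4-week arrays differed by 0.31 on the log2 scale (SE 0.17, limma adjusted p = 0.226), so the order control, 4-week, OVA rests on arrays that do not overlap rather than on passed tests. The moderated F test for any difference among the groups called Il4ra (adjusted p = 0.0303).

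Il13ra1, which completes the receptor for Il13, was the member that passed a comparison between groups. It measured 8.36, 8.26 and 7.94 on the arrays labelled control, 8.77, 8.54 and 8.49 on the OVA arrays and 8.85, 8.79 and 8.78 on the 4-week arrays. All groups were again separate, but in another order: the 4-week arrays were the highest, with an SD of 0.04. The 4-week mean of 8.81 was 1.54-fold higher than the mean of the arrays labelled control, 8.19 ± 0.22 (log2 change 0.62, SE 0.12, interval of the fold 1.28 to 1.85, limma adjusted p = 0.0112). The call was kept in all 17 alternatives, with changes from 0.50 without control replicate 3 to 0.71 without control replicate 1 and adjusted p from 0.00687 to 0.0385.

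The OVA arrays had an Il13ra1 mean of 8.60 ± 0.15, a log2 change of 0.41 (SE 0.12, limma adjusted p = 0.132) from the arrays labelled control. The 4-week arrays differed from OVA by 0.21 (SE 0.12, interval of the fold 0.963 to 1.39, adjusted p = 0.31). The change that passed was thus the one against the arrays with the other sex pattern, and Il13ra1 lies on the X chromosome. Of 790 X-linked single-gene probe sets, 13.2% were called in that comparison, against 14.4% of all tested probe sets. A share over many genes cannot tell whether the call of Il13ra1 goes with the sex pattern, which was not tested. The F test called Il13ra1 (adjusted p = 0.0234).

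**Figure D1:**
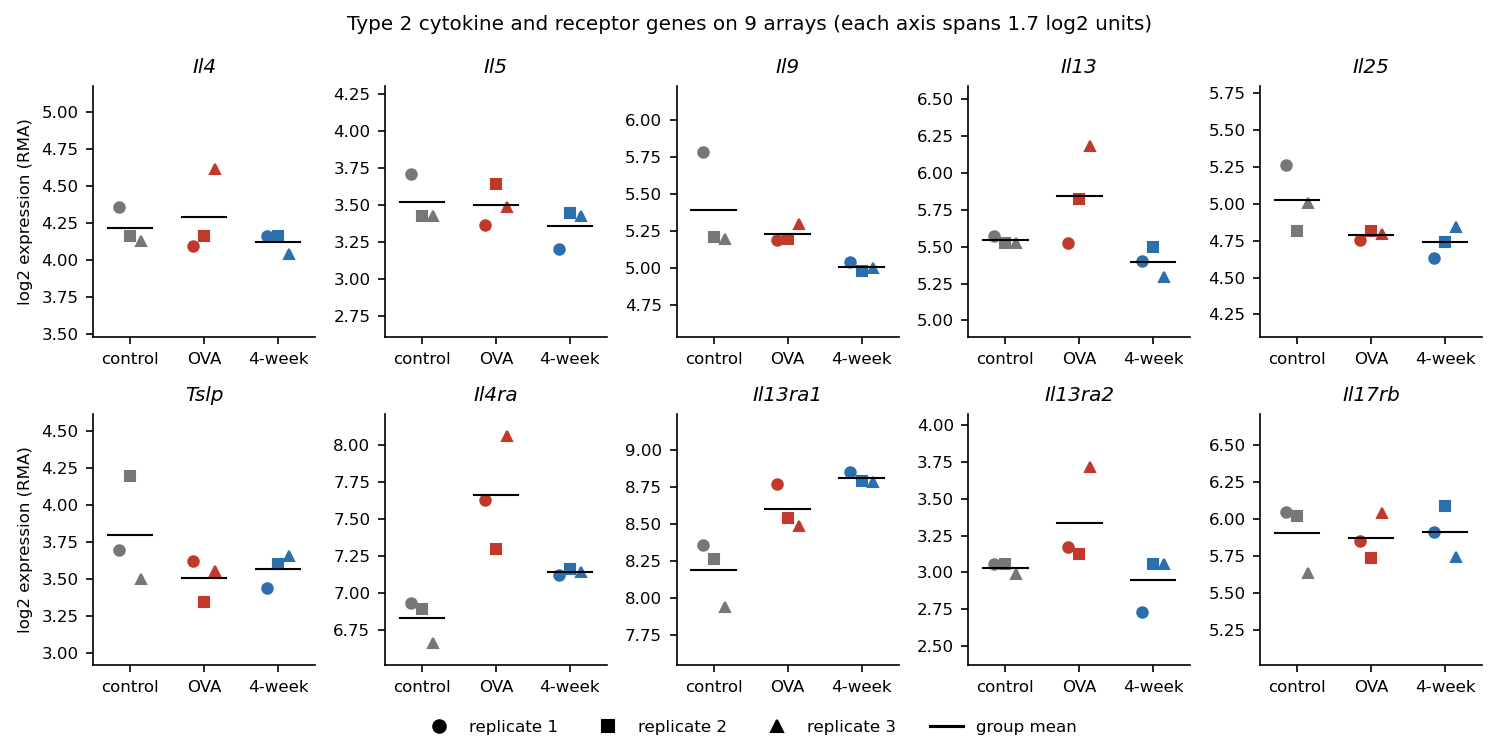
Log2 expression (RMA, vertical axis) of the 10 genes on each of the 9 arrays, by group; symbols mark replicate numbers, black bars the group means, and each panel spans the same range. Il4ra is highest on the OVA arrays (7.30 to 8.06) and Il13ra1 on the 4-week arrays (8.78 to 8.85), while Il17rb overlaps in all 3 groups.

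Il13ra2, the decoy chain, read 3.05, 3.05 and 2.99 on the arrays labelled control, 3.17, 3.12 and 3.72 on the OVA arrays and 2.73, 3.05 and 3.05 on the 4-week arrays. The OVA arrays lay above both other groups, by a narrow margin on replicates 1 and 2. The log2 change from control to OVA was 0.30 (SE 0.16, limma adjusted p = 0.37), and 0.12 without OVA replicate 3. From OVA to 4 weeks it was −0.39 (adjusted p = 0.171), or −0.20 without that array. Among the members, this placement of all OVA arrays above both other groups was seen for Il4ra and Il13ra2, 2 of 10, against 3.24% of all tested probe sets; no test was made of that difference. Il13ra2 is also X-linked.

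Il17rb, the receptor chain for Il25, gave no sign of separation. It was 6.05, 6.02 and 5.64 on the arrays labelled control, 5.85, 5.73 and 6.04 on the OVA arrays and 5.92, 6.09 and 5.75 on the 4-week arrays. Its log2 change was −0.03 from control to OVA, 0.04 from OVA to 4 weeks and 0.01 from control to 4 weeks (limma adjusted p = 0.939, 0.887 and 0.962). The intervals of the fold ran from 0.792 to 1.21, 0.831 to 1.27 and 0.814 to 1.25, so the arrays leave room for changes of about that size.

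Among the cytokines, Il13 had the clearest difference between OVA and 4-week arrays. It measured 5.57, 5.53 and 5.53 on the arrays labelled control, 5.53, 5.82 and 6.18 on the OVA arrays and 5.40, 5.50 and 5.30 on the 4-week arrays. OVA replicates 2 and 3 were the highest of the 9, OVA replicate 1 had the same value as control replicates 2 and 3, and the 4-week arrays were below all others. The OVA mean of 5.84 ± 0.33 and the 4-week mean of 5.40 ± 0.10 differed by −0.44 (SE 0.14, interval of the fold 0.588 to 0.919, limma adjusted p = 0.101). The difference passed without OVA replicate 1 (−0.60, adjusted p = 0.0323) and was −0.28 without OVA replicate 3. From control to OVA the log2 change was 0.30 (SE 0.14, adjusted p = 0.337), between 0.13 without OVA replicate 3 and 0.46 without OVA replicate 1.

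Il4 and Il5, which lie with Il13 on chromosome 11, did not pass in any comparison. Il4 was 4.35, 4.16 and 4.12 on the arrays labelled control, 4.09, 4.16 and 4.61 on the OVA arrays and 4.16, 4.16 and 4.04 on the 4-week arrays. The groups overlapped, and only OVA replicate 3 stood above the rest. Its log2 change from control to OVA was 0.08 (SE 0.13), with a fold interval of 0.854 to 1.3 (limma adjusted p = 0.825). Without OVA replicate 3 the change was −0.088. Il5 was 3.71, 3.43 and 3.43 on the arrays labelled control, 3.37, 3.64 and 3.49 on the OVA arrays and 3.20, 3.45 and 3.43 on the 4-week arrays, with all groups overlapping. Its change from control to OVA was −0.02 (SE 0.11, fold interval 0.827 to 1.17, adjusted p = 0.941).

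Il9, the mast cell growth factor of Th2-type cells, was lowest at 4 weeks. It read 5.78, 5.21 and 5.19 on the arrays labelled control, 5.19, 5.19 and 5.30 on the OVA arrays and 5.04, 4.98 and 5.0 on the 4-week arrays. The 4-week arrays lay below both other groups, as they did for Il13: 2 of 10 members, against 8.18% of all tested probe sets. The 4-week change from the arrays labelled control was −0.39 (SE 0.14, limma adjusted p = 0.0966), and −0.20 without control replicate 1, the highest array. From OVA to 4 weeks it was −0.22 (SE 0.14, adjusted p = 0.379).

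The epithelial cytokines Il25 and Tslp had their highest single array among those labelled control. Il25 was 5.26, 4.82 and 5.0 there, 4.76, 4.82 and 4.79 on the OVA arrays and 4.63, 4.74 and 4.84 on the 4-week arrays. Its log2 change was −0.24 (SE 0.11, limma adjusted p = 0.325) from control to OVA and −0.29 (SE 0.11, adjusted p = 0.106) from control to 4 weeks, and the groups overlapped at 4.82 and 4.84. Without control replicate 1, the highest array, these changes were −0.12 and −0.17. Tslp was 3.70, 4.19 and 3.50 on the arrays labelled control, 3.62, 3.34 and 3.56 on the OVA arrays and 3.44, 3.60 and 3.65 on the 4-week arrays. Control replicate 2 alone stood above the others. The change of Tslp from control to OVA was −0.29 (SE 0.16, fold interval 0.632 to 1.05, adjusted p = 0.41) and −0.094 without control replicate 2.

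Low values limit these readings. No detection calls came with the table, so whether a cytokine's signal was above background is unknown. For Il4 and Il13ra2 the deposited value was identical to the last digit on 4 of the 9 arrays, for Il5 and Il13 on 3 and for Il9 and Il25 on 2. Tslp, Il4ra, Il13ra1 and Il17rb had no such repeats. Of all tested probe sets, 52.1% had a value shared by at least 2 arrays and 27.7% one shared by at least 3. Arrays tied in this way cannot be ordered.

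In counts, 0 of the 10 members passed from control to OVA in limma, where 1.30% of all tested probe sets did. At an unadjusted p under 0.05 there were 2, Il4ra and Il13ra1, against 16.4% of all probe sets. From OVA to 4 weeks 0 of 10 passed (6.33% of all), with 3 at an unadjusted p under 0.05 (23.9% of all): Il13, Il4ra and Il13ra2. From control to 4 weeks 1 of 10 passed, against 14.4% of all, and 3 had an unadjusted p under 0.05 (32.9% of all): Il13ra1, Il9 and Il25. The F test called 2 of 10, Il4ra and Il13ra1, against 12.4%; it called 1 without control replicate 1 or 3 and 0 without control replicate 2 or any single 4-week array. These shares are near those of all probe sets or rest on 1 or 2 genes, so the counts single out no change of the 10 genes as a whole. Arrays that did not overlap were found, upward from control to OVA, for 3 of 10 members against 10.4% of probe sets, and downward from OVA to 4 weeks for 4 of 10 against 13.7%. In the opposite directions they were found for 0 of 10 (11.1% of probe sets) and 1 of 10 (14.5%). From control to 4 weeks 2 of 10 were higher and 2 of 10 lower in this way, against 16.6% and 18.4%. The median log2 change of the 10 was 0.03 from control to OVA, −0.15 from OVA to 4 weeks and −0.12 from control to 4 weeks, beside −0.02, −0.02 and −0.04 over all tested probe sets. The comparisons of OVA and of 4-week arrays with control share the arrays labelled control, and all 3 comparisons use the same 9 arrays.

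**Figure D2:**
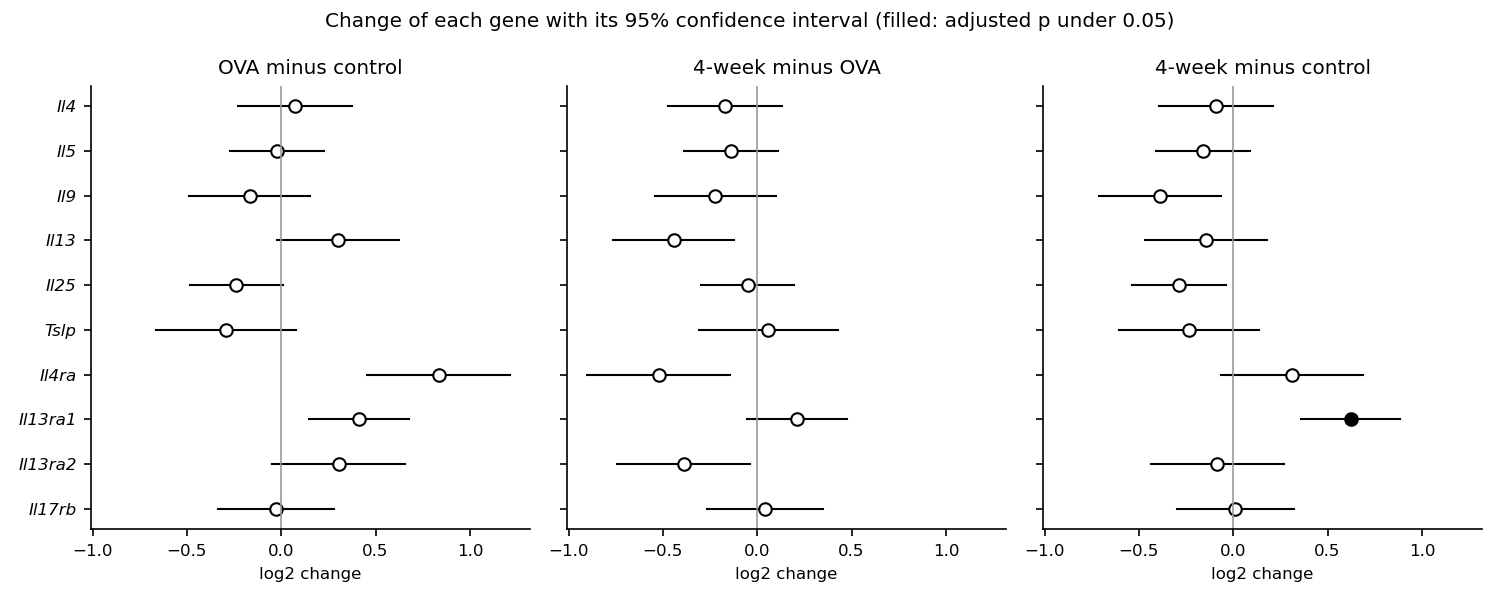
Log2 change of each gene (point) with its 95% confidence interval (line) in the 3 comparisons; filled points have an adjusted p under 0.05 in limma over all probe sets. The one filled point is Il13ra1 in 4-week minus control (0.62), and Il4ra in OVA minus control (0.83) is the largest change.

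The list of partner chains held those that pair with the member receptors and chains of the receptors for Il5, Il9, Tslp and Il33. Of the 7 measured, 1 rose from control to OVA and 1 fell from OVA to 4 weeks. Of all tested probe sets, 0.782% and 2.51% did so. Of 9 listed chains 7 were measured by a probe set of their own; Il2rg, the common gamma chain, and Il1rl1, the receptor for Il33, were not analysed here. Csf2rb, the beta chain shared by the receptors for Il5, Il3 and GM-CSF, was 6.79, 5.96 and 5.94 on the arrays labelled control, 7.38, 7.42 and 7.56 on the OVA arrays and 6.54, 6.58 and 6.64 on the 4-week arrays. The OVA arrays lay above both other groups. Csf2rb rose by 1.22 from control to OVA (SE 0.20, limma adjusted p = 0.0255) and fell by 0.87 from OVA to 4 weeks (SE 0.20, adjusted p = 0.0381). The first call was lost in 5 of the 9 fits without 1 array (adjusted p up to 0.112, without control replicate 2) and the second in 7 (up to 0.127, without OVA replicate 3). With all arrays, both were also lost when every row of the table was tested, and the first when the compared groups were fitted alone (up to 0.0857 for the first and 0.0526 for the second).

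The other measured partners did not pass in any comparison. Il17ra, which pairs with Il17rb, had 0.14 from control to OVA (adjusted p = 0.371), Crlf2, the Tslp receptor chain, −0.18 (adjusted p = 0.334), Il7r, which pairs with it, −0.05 (adjusted p = 0.895), Il9r −0.13 (adjusted p = 0.5) and Il5ra 0.05 (adjusted p = 0.72), all in limma. The median over the 7 was −0.03, −0.04 and 0.0012 in the 3 comparisons, close to that of all probe sets.

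Downstream of the receptors, 16 of 17 listed signalling genes were measured. From control to OVA 3 rose and 0 fell, where 0.782% of all tested probe sets rose and 0.521% fell: Cish, a feedback inhibitor of STAT5 signalling, by 0.98 (SE 0.16, limma adjusted p = 0.026), Jak2, a kinase of several cytokine receptors, by 0.46 (adjusted p = 0.0375), and Stat3 by 0.45 (adjusted p = 0.0292). From OVA to 4 weeks 0 rose and 3 fell (3.81% and 2.51% of all): Cish by 0.82 (adjusted p = 0.0235), Stat3 by 0.32 (adjusted p = 0.0401) and Stat5a by 0.32 (adjusted p = 0.0294). From control to 4 weeks 2 rose and 0 fell (7.92% and 6.45% of all): Jak2 rose by 0.43 (adjusted p = 0.0119) and Traf6, an adaptor used by the Il25 receptor, by 0.31 (adjusted p = 0.0354). Cish was 5.87, 6.29 and 5.89 on the arrays labelled control, 6.70, 7.30 and 7.01 on the OVA arrays and 6.09, 6.27 and 6.19 on the 4-week arrays. Its OVA arrays were above all others, whereas those of Jak2 (7.89 to 8.04) overlapped the 4-week arrays (7.85 to 7.98).

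Of these 8 calls, that of Jak2 at 4 weeks was kept in all 9 fits without 1 array. The calls from control to OVA were lost in 4 of the 9 fits for Cish (adjusted p up to 0.0863, without OVA replicate 3), in 8 for Jak2 (up to 0.124, without control replicate 2) and in 6 for Stat3 (up to 0.101, without OVA replicate 1). Those from OVA to 4 weeks were lost in 5 fits for Cish and for Stat5a (up to 0.0802 and 0.0933, without OVA replicate 3) and in 8 for Stat3 (up to 0.124, without 4-week replicate 2), and that of Traf6 in 7 (up to 0.0916, without control replicate 3). With all arrays, the calls of Jak2 at 4 weeks and of Cish from OVA to 4 weeks passed in every alternative. The other 6 were lost under 2 or 3 of the settings quantile normalization, median centring, every row and the compared groups alone, with adjusted p up to 0.0817 for Cish, 0.0855 for Jak2 and 0.0732 for Stat3 from control to OVA, 0.074 for Stat3 and 0.0675 for Stat5a from OVA to 4 weeks, and 0.0785 for Traf6. Stat6, the main factor of Il4 and Il13 signalling, was 7.81, 7.59 and 7.54 on the arrays labelled control, 7.95, 8.20 and 7.91 on the OVA arrays and 7.85, 7.92 and 7.86 on the 4-week arrays. Its change from control to OVA was 0.37 (SE 0.10, limma adjusted p = 0.114), with the groups not overlapping.

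**Figure D3:**
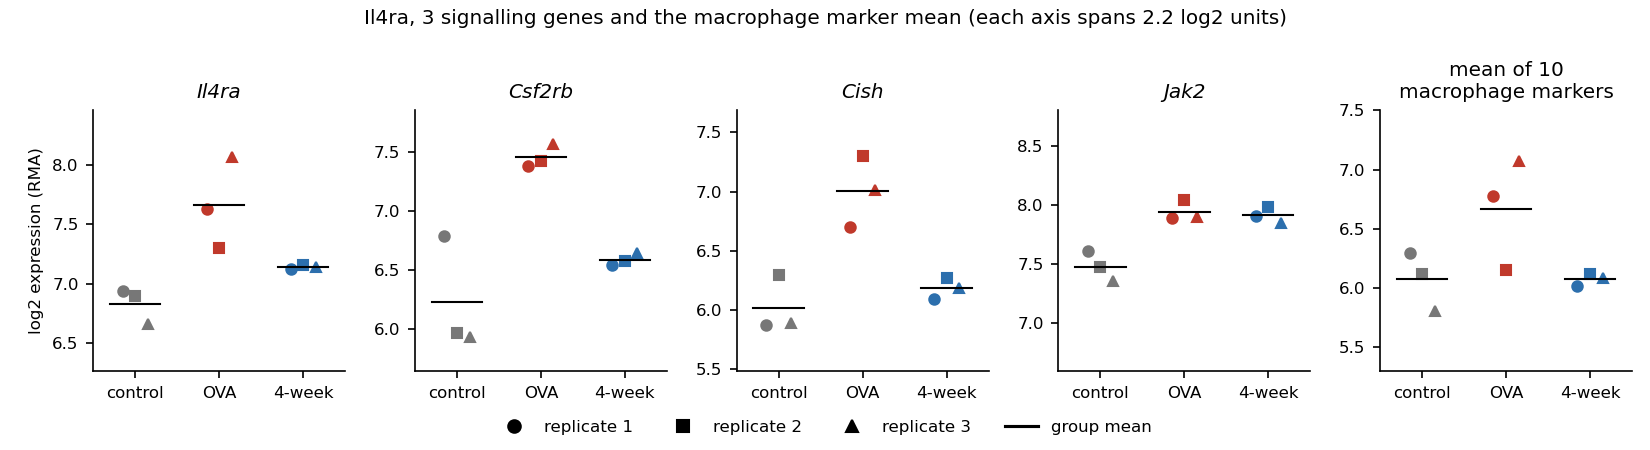
Log2 expression (RMA, vertical axis) of Il4ra, the signalling genes Csf2rb, Cish and Jak2, and the mean of 10 macrophage markers on each array by group; symbols mark replicate numbers, black bars group means, and each panel spans the same range. The 4-week arrays of Jak2 (7.85 to 7.98) overlap its OVA arrays, and OVA replicate 2 is the lowest OVA array for Il4ra (7.30) and for the macrophage mean (6.15). It is also the lowest OVA array for the means of the other leukocyte marker lists, which are not drawn.

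Of the regulators of the cytokine genes, 0 of 17 measured passed from control to OVA, where 1.30% of all tested probe sets did. Il33, an epithelial alarmin listed with them, had −0.85 (limma adjusted p = 0.0818), and Gata3, the master factor of type 2 lymphocytes, 0.22 (adjusted p = 0.526). From OVA to 4 weeks Junb, an AP-1 subunit, fell by 0.52 (adjusted p = 0.0494) and none rose (2.51% and 3.81% of all). From control to 4 weeks 2 of 17 fell and none rose (6.45% and 7.92% of all). Tbx21, the master factor of the opposing Th1 type, fell by 0.37 (adjusted p = 0.0235) and Nfatc1 by 0.48 (adjusted p = 0.0389). Leaving out 1 array in turn ended these calls in 7, 4 and 7 of 9 fits, with adjusted p up to 0.162 (without OVA replicate 3), 0.0749 (without control replicate 2) and 0.121 (without 4-week replicate 2). With all arrays, Junb was also lost under both rescalings, with every row, with the compared groups alone and with 1 value per gene (up to 0.0792). Tbx21 was lost under both rescalings and with the compared groups alone (up to 0.121), and Nfatc1 after median centring, with every row and with the compared groups alone (up to 0.0862).

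Of the genes known to respond to Il4 or Il13, 30 were measured. From control to OVA 1 rose (0.782% of all probe sets did) and 0 fell, from OVA to 4 weeks 0 rose and 1 fell (2.51% of all), and from control to 4 weeks 1 rose (7.92% of all) and 0 fell, so each count rests on 1 gene. The calls from control to OVA and from OVA to 4 weeks were those of Cish, which is also listed among the signalling genes. The call from control to 4 weeks was Agr2, a chaperone of mucin-producing cells, at 0.77 (SE 0.15, limma adjusted p = 0.0119), which passed in all 9 fits without 1 array. Clca1, a goblet cell product, had 0.96 from control to OVA (adjusted p = 0.0914). The median of the list was 0.48, −0.30 and −0.03 in the 3 comparisons, beside −0.02, −0.02 and −0.04 over all probe sets. The list mean per array was 6.01, 5.94 and 5.52 on the arrays labelled control and 6.57, 6.03 and 6.84 on the OVA arrays. It was 5.94, 5.87 and 5.87 on the 4-week arrays. OVA replicate 2 thus lay close to control replicate 1, and the shift was not even across the OVA arrays.

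**Figure D4:**
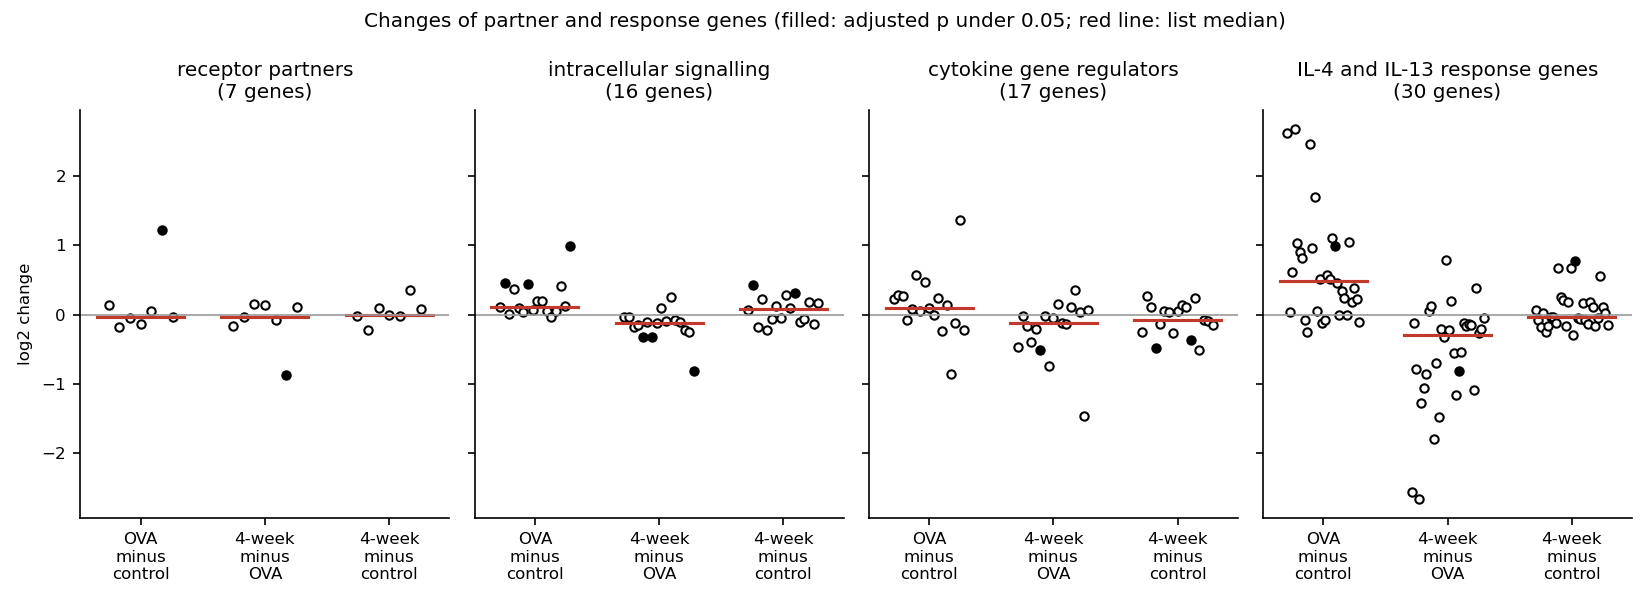
Log2 change (vertical axis) of each measured gene of 4 lists in the 3 comparisons; filled points have an adjusted p under 0.05 in limma, and red lines are list medians. The response genes have a median of 0.48 from control to OVA and −0.30 from OVA to 4 weeks, and 1 filled point in each of the 3 comparisons.

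Markers of cells that make or carry these proteins are given beside the members as the mean log2 value of each list per array. For 10 macrophage markers this mean was 6.30, 6.12 and 5.81 on the arrays labelled control, 6.78, 6.15 and 7.07 on the OVA arrays and 6.01, 6.12 and 6.08 on the 4-week arrays. The OVA arrays stood in the same order, replicates 3, 1 and 2, for these markers and for Il4ra. This order was not particular to macrophages. The means of the mast cell and basophil, eosinophil, T and Th2 cell, innate lymphoid and tuft cell markers had it too. So did the mean of the genes responding to Il4 or Il13, whereas the epithelial, stromal and olfactory neuron means had other orders. Some of these ranks rest on very small steps. On OVA replicates 1, 2 and 3 the tuft cell mean was 6.163, 6.108 and 6.164. The innate lymphoid mean was 6.09, 6.07 and 6.28 and the eosinophil mean 5.51, 4.98 and 5.53. Few orders of 3 arrays exist, so lists can share one without being related. None of the 10 macrophage markers passed in any comparison with all arrays. Without OVA replicate 2, Adgre1, C1qb and C1qc passed from control to OVA (limma adjusted p = 0.043, 0.0306 and 0.0279) and from OVA to 4 weeks. In the other 8 fits without 1 array they passed in neither comparison. From control to OVA the adjusted p then reached 0.624, 0.658 and 0.363, all without OVA replicate 1. The mean of 14 mast cell and basophil markers was 4.96 to 5.16 on the arrays labelled control, 5.39 to 6.24 on the OVA arrays and 5.47 to 5.62 on the 4-week arrays, again lowest on OVA replicate 2 within its group. None of the 14 passed from control to OVA, where their median was 0.43. The mast cell proteases Mcpt1 and Mcpt2 had 4.12 and 3.78 (limma adjusted p = 0.0659 and 0.0574). Each passed without OVA replicate 2 (0.00257 and 6.73e-05) and in none of the other 8 fits without 1 array (up to 0.202 and 0.183). The same held for Mcpt4, Cpa3 and Tpsab1, with changes of 0.85, 1.08 and 0.84 on all arrays. From control to 4 weeks Kit, a mast cell receptor, rose by 0.56 (limma adjusted p = 0.0411) and Mcpt8, a basophil protease, fell by 0.46 (adjusted p = 0.0225), with the calls lost in 6 and 4 of the 9 fits without 1 array (up to 0.118 and 0.0777, both without 4-week replicate 2). Both were also lost with the compared groups alone, Kit with every row and Mcpt8 after quantile normalization (up to 0.0588 and 0.093).

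The 10 T and Th2 cell markers had means of 4.82 to 4.93, 4.77 to 5.14 and 4.79 to 4.87 in the 3 groups, and the 7 eosinophil markers 5.0 to 5.22, 4.98 to 5.53 and 4.88 to 5.20, with none passing. The 8 innate lymphoid markers had 6.00 to 6.11, 6.07 to 6.28 and 6.08 to 6.13. Of them Id2, which many other cells also express, rose by 0.87 from control to 4 weeks (limma adjusted p = 0.00934). The 12 tuft cell markers, the cells known for Il25, had means of 6.14 to 6.20, 6.11 to 6.16 and 6.14 to 6.22, and Gnat3, a taste G protein, rose by 0.55 from OVA to 4 weeks (adjusted p = 0.00436) and by 0.62 from control to 4 weeks (adjusted p = 0.00205). The other 11 tuft cell markers did not pass, and the median of the 12 was −0.04 from control to 4 weeks. In that comparison Pou2f3, the factor that specifies these cells, had −0.37 (limma adjusted p = 0.0696) and Trpm5 had 0.29 (0.0635). Without 1 array the adjusted p ranged from 0.0204 to 0.181 for Pou2f3 and from 0.0293 to 0.18 for Trpm5. The calls of Id2 and Gnat3 were kept in all 9 fits without 1 array.

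In the comparison in which Il13ra1 passed, 2 of 12 epithelial markers and 2 of 8 markers of stroma and vessels rose and none fell, where 7.92% of all tested probe sets rose and 6.45% fell. The 12 respiratory and basal epithelial markers had means of 9.04 to 9.47 on the arrays labelled control, 9.49 to 9.62 on the OVA arrays and 9.49 to 9.56 on the 4-week arrays. Of them Epcam, an adhesion protein of epithelial cells, rose by 0.60 from control to 4 weeks (SE 0.10, limma adjusted p = 0.00792) and the keratin Krt18 by 0.48 (adjusted p = 0.017). The 8 markers of stroma and vessels had means of 8.18 to 8.44, 8.21 to 8.41 and 8.32 to 8.70, and of these the endothelial Cdh5 rose by 0.46 (adjusted p = 0.00789) and Pecam1 by 0.34 (adjusted p = 0.0306). The call of Pecam1 was lost in 4 of the 9 fits without 1 array (up to 0.0939, without 4-week replicate 2), and those of Epcam, Krt18 and Cdh5 in none, although Krt18 did not pass after quantile normalization (0.0788), nor Pecam1 with the compared groups alone (0.0677). Of 8 olfactory neuron markers, with means of 10.69 to 11.05, 10.59 to 10.77 and 10.47 to 10.92, Gnal fell by 0.44 (adjusted p = 0.0349), which was lost in 7 fits (up to 0.112, without 4-week replicate 2) and, with all arrays, after median centring, with every row and with the compared groups alone (up to 0.0782). The part of these cell types in the values of Il4ra, Il13ra1 and Il13 was not tested.

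The genes with the pattern most like 3 members were found by Pearson's r across the 9 arrays, as a description of these arrays. Groups differ in level, so much of each r is the step between groups. The 5 named per member had the highest r among 4435 candidate genes with an SD of at least 0.2. Values of r picked as the highest of so many are high by selection. For Il13ra1 they were Prom1 (0.98), Emb (0.98), Myof (0.97), Jchain (0.97) and Epcam (0.97). On the 6 arrays other than those labelled control, r was 0.97, 0.91, 0.87, 0.86 and 0.92 for these genes. For Il4ra they were Entpd3, Adam9, Fabp5, Cyp4f18 and B4galt6, at 0.98, 0.98, 0.97, 0.97 and 0.96, and at 0.98, 0.97, 0.99, 0.98 and 0.97 on those 6 arrays. For Il13 they were Fosl1, an AP-1 subunit, at 0.99, Pmp22 at 0.96, Plau at 0.94, Ephx3 at 0.93 and Tubb4a at 0.93. On those 6 arrays r was 0.99, 0.96, 0.96, 0.96 and 0.93. Fosl1 read 5.42, 5.42 and 5.43 on the arrays labelled control, 5.42, 5.76 and 5.95 on the OVA arrays and 5.27, 5.36 and 5.24 on the 4-week arrays. As for Il13, OVA replicate 1 stood with the arrays labelled control and OVA replicates 2 and 3 above them. For both genes this rests on repeated values. OVA replicate 1 was identical to the last digit to control replicates 1 and 2 for Fosl1 and to control replicates 2 and 3 for Il13.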

How the data were processed

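The deposited table holds RMA expression values on the log2 scale, 1 column per array, which the authors made with RMA, per the submitters' processing notes. Its version and probe set library are not stated there, and the log2 scale was read from the values (1.63 to 13.8). RNA was labelled with whole-transcript kits, 1 array per sample, per the labels' protocols. Of 35556 rows, 23410 with a gene symbol in the platform annotation of 2016 were tested and 21789 name 1 gene; the highest mean represented a gene. Group means of all 9 arrays were fitted together with limma 3.58.1 (R 4.3.3; lmFit, contrasts.fit, eBayes; 6 residual and 2.98 prior degrees of freedom), two-sided, with Benjamini-Hochberg adjustment over all tested probe sets and a threshold of 0.05. The fit was tested on simulated data drawn independently for each array, so that test does not cover structure shared between arrays. No result above rests on it. The number of arrays limits the precision. Members and lists were chosen with earlier results of these data known. Named were all members, the called genes of each list and some of those with the smallest F test p, and selected partners, chosen after their values were seen. The alternatives were quantile normalization, median centring, every row, the brightest 60% of probe sets, the compared groups alone, a trended robust variance, a replicate block, 1 averaged value per gene, and leaving out each array. Promoter windows were on the gene's strand, since TATAAA was as frequent just before the start for genes of both strands (442 of 16560 and 421 of 16291).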

Additional observations from a re-analysis of the deposited data

How the results depend on the processing

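The call of Il13ra1 from control to 4 weeks was kept in all 17 alternatives. The number of members called from OVA to 4 weeks stayed at 0, except for 1 without OVA replicate 1 (Il13) or 2 (Il4ra), so from 0 to 1 without 1 array. From control to OVA it was 1 in place of 0, Il4ra, with the upper 60% of probe sets (adjusted p = 0.0392), the trended robust variance (0.0432), 1 value per gene (0.045) and without OVA replicate 2, so again 0 to 1 without 1 array. From control to 4 weeks it was 1 throughout. The F test, whose alternatives were chosen after seeing the data, called between 0 and 2 members without 1 array, with 0 without control replicate 2 or any 4-week array. Over all probe sets, the 305 calls from control to OVA became 109 with the compared groups alone and 143 with every row, and 63 to 305 without 1 array. The 1481 from OVA to 4 weeks became 737 with the compared groups alone and 948 with 1 value per gene, and 446 to 1361 without 1 array. The 3364 from control to 4 weeks became 2054 with the compared groups alone, and 1560 to 2966 without 1 array. The causes were not tested. The share of calls that were higher was 60%, 60.3% and 55.1% in these comparisons, 49.5% in the first after quantile normalization, and 78.1% and 75.7% in the others after median centring. With the replicate block, 213, 1397 and 3271 probe sets and 0, 0 and 1 members were called. Deviations of same-numbered arrays correlated at −0.04 to 0.33, above 0.1 in 5 of 9 pairs, and 7 of 9 arrays correlated best with their own number. This hints at some shared structure, but no label ties the numbers to an animal, batch or day and not every pair exceeded 0.1, so the arrays were not treated as paired. Of 24 calls of list genes, 8 were lost with the block (adjusted p from 0.0504 to 0.063): Csf2rb and Stat3 from OVA to 4 weeks, Jak2 and Stat3 from control to OVA, and Traf6, Nfatc1, Kit and Gnal from control to 4 weeks.

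Of 486 alternative values of the members' changes, 18 changed sign, none of them of a called change. After quantile normalization these were Il13ra2 (0.012) and Il4 (0.027) from control to 4 weeks and Il25 from OVA to 4 weeks (0.041, and 0.0091 after median centring). Without 1 array, the log2 change from control to OVA ranged from −0.16 to 0.044 for Il17rb, −0.088 to 0.18 for Il4, −0.095 to 0.070 for Il5 and −0.27 to 0.026 for Il9. That from OVA to 4 weeks ranged from −0.046 to 0.13 for Il17rb, −0.10 to 0.0015 for Il25 and −0.023 to 0.12 for Tslp, and that from control to 4 weeks from −0.14 to 0.022 for Il13ra2 and −0.12 to 0.097 for Il17rb. Without detection calls, signal over background is unknown.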
